A study of Mus musculus with 8 samples.

Results

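The 10 genes described here encode surface molecules through which a macrophage holds on to other cells and to the surrounding matrix: the integrin alpha chains Itgam, Itgal, Itga4, Itga5 and Itgav, the integrin beta chains Itgb1 and Itgb2, the integrin ligand Icam1, the hyaluronan receptor Cd44 and the heparan sulfate proteoglycan Sdc4. They were taken by gene symbol from a table of read counts that holds 23141 genes, and all 10 were found in it with reads in every library. The counts come from RAW264.7 cells, a mouse macrophage line, left without stimulus (0 min) or given LPS at 100 ng/ml for 15, 30, 45, 60, 75, 90 or 120 min, with 1 library per time point. LPS is a component of the bacterial outer membrane that macrophages sense through the receptor TLR4. RAW264.7 is a single transformed line, and no untreated culture was collected at a later time, so the time in culture and the time with LPS cannot be told apart.

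An integrin is a pair of one alpha and one beta chain that links ligands outside the cell to actin inside it. Itgb2 pairs with Itgal or Itgam in the leukocyte integrins that bind Icam1, an immunoglobulin-type surface protein well known as a target of NF-kB in activated cells. Itgb1 pairs with Itga5 in the classical fibronectin receptor and with Itga4 in a receptor for fibronectin and Vcam1, while Itgav joins several beta chains to bind matrix proteins such as vitronectin and osteopontin. Cd44 binds hyaluronan, and Sdc4 is a co-receptor that works with fibronectin-binding integrins at focal adhesions.

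The promoter windows of the members were searched for short strings that resemble the binding site of NF-kB, and all matching stretches are shown. They were found in Icam1, Itga5 and Sdc4, the members with the largest increases described below, and in Itgb1, which was not called at any time point. Cd44 and Itgav, called higher at 120 min, held none. A link between the strings and the increases was not tested. Windows of 300 bases, from 250 before to 50 after the annotated transcript start (RefSeq, GRCm38.p6), were at hand for 8 members, and those of Itgal and Itgb2 were not. In the following lines the 9 letters that match GGNNNTTCC on either strand are in capitals, each with 10 bases on both sides, written 5′ to 3′ on the strand of the gene.
Icam1, distal match: acttcagtttGGAAATTCCtagatcgcag
Icam1, proximal match: gtctccacccGGAAATACCgaagccctcg
Itga5: gccccccagaGGTGATTCCtttcctcatt
Sdc4: gctttcccggGGGAATTCCgggcggtgcg
Itgb1: gactgcggctGGGCTTTCCagccgggcgg

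The Icam1 stretches lie at chr9:21015777-21015805 and chr9:21015846-21015874 on the plus strand, with the matching letters at positions -153 to -145 and -84 to -76 from the start. The Itga5 stretch lies at chr15:103366910-103366938 on the minus strand (-137 to -129), that of Sdc4 at chr2:164443251-164443279 on the minus strand (-81 to -73) and that of Itgb1 at chr8:128685480-128685508 on the plus strand (-164 to -156). A match was found in 4 of the 8 member windows and in 6070 of all 32851 windows (18.5%). The string TGANTCA, which resembles the site of AP-1 factors, was found in 0 of the 8 member windows and in 7.81% of all windows. A match is a stretch of letters, and binding of a factor was not measured here.

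Each library held between 100229997 (75 min) and 159036125 counts (120 min), and size factors (the scale that makes the libraries comparable) ranged from 0.71 to 1.23. Reads assigned to Rn45s, the gene of the ribosomal RNA precursor, took 8.18% to 9.11% of the counts at 0, 30, 60 and 120 min. At 15, 45, 75 and 90 min they took 13.0% to 20.5%, so the libraries fall into a lower and a higher group in this measure. The ratios of 30, 60 and 120 min to 0 min compare libraries of the lower group with one another. The macrophage markers Cd68, Csf1r, Lyz2, Emr1, Cd14, Mpeg1, Ptprc and Fcgr1, 8 of 10 listed, summed to between 5703 and 6892 cpm (counts per 1000000 counts) in each library. Among them Cd14 was higher and Fcgr1 lower at 120 min than at 0 min (log2 ratios 1.87 and -1.39). The summed markers of T cells, B cells, neutrophils and endothelial cells reached at most 0.535 cpm, and no fibroblast or epithelial marker had more than 1 count. The early LPS response genes Tnf, Il1b, Nfkbia, Cxcl2 and Tnfaip3 were all higher at 60 and at 120 min than at 0 min.

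A gene was called higher or lower than at 0 min if the log2 ratio of normalized counts (counts divided by the size factor) passed 0.5, a ratio of 1.41, and the unadjusted p-value of an exact negative binomial test was below 0.05. Because each time point is 1 library, the p-values compare libraries and not conditions, the intervals given below cover counting error only, and no difference has a replicate check. In these bulk counts, fewer cells that express a gene and less RNA per cell cannot be told apart.

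After 120 min of LPS, 5 of the 10 members were higher than before stimulation, in the order Itga5, Sdc4, Icam1, Cd44 and Itgav, and none was lower. Of all 15663 genes tested, 7.64% were called higher and 6.7% lower. Among the genes that averaged 100 normalized counts or more, as all members did, these shares were 9.27% and 8.52%. The median log2 ratio of the members was 0.77 (ratio 1.71), against -0.01 for the 10492 genes that averaged 100 normalized counts or more, whose 5th and 95th percentiles were -0.99 and 1.02. The members that were not called were Itgb1, Itgb2, Itga4, Itgam and Itgal, that is both beta chains, both alpha chains of the Icam1 receptors and the alpha chain with the highest level at rest.

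**Figure D1:**
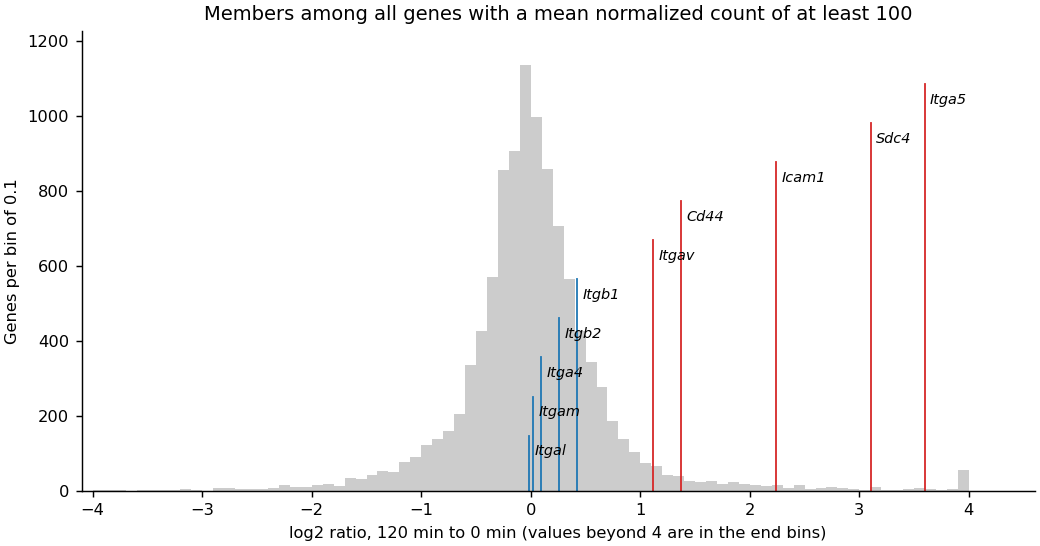
Histogram of the log2 ratio of normalized counts (120 min to 0 min, 1 library each) for the 10492 genes that averaged 100 normalized counts or more, in bins of 0.1, with 1 vertical line per member (red, called higher; blue, not called). The end bins also hold all genes beyond -4 and 4, and the heights of the lines carry no value. Itga5 (3.60), Sdc4 (3.10) and Icam1 (2.24) stand in the far right tail, Cd44 (1.37) and Itgav (1.12) at its beginning, and the other 5 members within the bulk of the genes.

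The members differed in when they first passed the limits. At 15 min none was called (0.295% of all genes were called higher and 0.164% lower), and the ratios of the members lay between 0.947 for Icam1 and 1.26 for Itga4. At 30 min Sdc4 was the only member called (1.14% of genes higher, 0.202% lower), and at 45 min Icam1, Itga5, Itga4 and Sdc4 were called (3.8% higher, 1.5% lower). At 60 min Icam1, Itga5 and Sdc4 were called, which is 3 of 10 members where 3.43% of genes were higher and 2.36% lower. Cd44 joined these 3 at 75 min (4.77% of genes higher, 3.48% lower) and Itgav joined the resulting 4 at 90 min (5.79% higher, 4.42% lower). No member was called lower at any time point. The 45, 75 and 90 min libraries are among those rich in Rn45s. In the group lower in Rn45s, Icam1 and Itga5 were first called at 60 min and Cd44 and Itgav at 120 min. Itga4 was not called in that group. The part of the Rn45s difference in the order of the first calls was not tested.

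**Figure D2:**
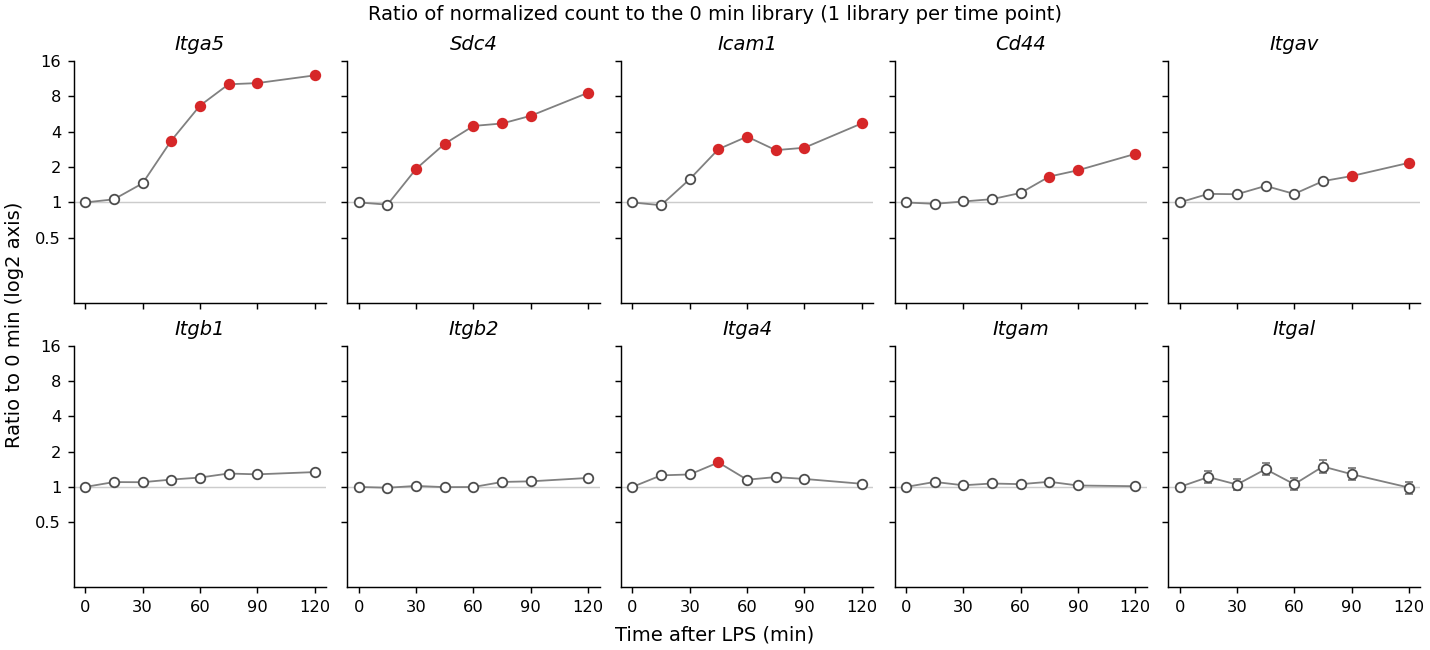
Ratio of the normalized count to the 0 min library (log2 axis) against time after LPS in min for each member, with exact 95% counting intervals that are mostly smaller than the symbols. Filled red points were called higher than at 0 min and open points were not. Itga5, Sdc4 and Icam1 leave the line of 1 by 45 min, Cd44 and Itgav pass the limits from 75 or 90 min on, and the lower row stays between 0.985 and 1.62.

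Icam1, the ligand of the leukocyte integrins (chr9:21015940-21028814, plus strand, 7 exons, GRCm38.p6 as for all members), had 16121, 13721, 26577, 34702, 56344, 27316, 31754 and 80157 counts from 0 to 120 min. After scaling, the 30 min library had 1.58 times the unstimulated level, which was not called (unadjusted p = 0.059, exact negative binomial test), and the 45 min library 2.84 times (95% interval 2.79 to 2.90). It was 3.64-fold higher at 60 min (3.57 to 3.70; Benjamini-Hochberg adjusted p = 2.38e-05 over all genes, exact negative binomial test) and 4.71-fold higher at 120 min (4.63 to 4.79; adjusted p = 5.54e-08). Icam1 was the one strongly increased member whose course had a dip: its ratio was 2.79 and 2.92 in the 75 and 90 min libraries, so that the 75 min value was 0.767 of the 60 min value (0.756 to 0.778), and 120 min was 1.61 times 90 min (1.59 to 1.63). The dip coincides with 2 of the 4 libraries rich in Rn45s (20.5% and 15.8% of counts), and the part of this difference in the dip was not tested. At 120 min Icam1 was 1.29 times its 60 min level, which did not pass the limits.

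Itga5, the alpha chain of the classical fibronectin receptor (chr15:103344286-103366791, minus strand, 30 exons), showed the largest increase of the members. Its counts were 12693, 12130, 19282, 32302, 81284, 78249, 88866 and 161906 from 0 to 120 min. Relative to 0 min it stood at 1.06 after 15 min and 1.45 after 30 min, and Itga5 was first called at 45 min with a ratio of 3.36 (3.29 to 3.43). The ratio reached 6.67 in the 60 min library (6.54 to 6.79), 10.1 and 10.4 in the next 2 libraries and 12.1 in the 120 min library (11.9 to 12.3; adjusted p = 2.21e-18, exact negative binomial test). Most of the increase was thus in place by 75 min, and the steps from 75 to 90 min (1.02) and from 90 to 120 min (1.16) were small. At 120 min the log2 ratio of Itga5 exceeded that of 99.4% of the 10492 genes.

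Sdc4, the syndecan of focal adhesions (chr2:164424247-164443188, minus strand, 5 exons), was the first member to be called. Its counts were 17197, 14802, 34735, 41233, 74099, 49161, 63406 and 156075 from 0 to 120 min. At 30 min it was 1.93-fold higher (1.90 to 1.97; unadjusted p = 0.0067, adjusted p = 0.893, exact negative binomial test), so this first call does not hold after adjustment over all genes. From 45 min on it did, with ratios of 3.17, 4.48, 4.71 and 5.47 up to 90 min and of 8.60 in the 120 min library (8.46 to 8.74; adjusted p = 2.53e-14). Unlike for Icam1, the Sdc4 ratio was at no later time below an earlier one from 15 min on.

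Cd44, which binds hyaluronan and is made in many splice forms that the counts do not separate (chr2:102811141-102901669, minus strand, 9 to 19 exons), moved later. Its counts were 36505, 31930, 38859, 29496, 42252, 36851, 46234 and 99897 from 0 to 120 min, and its ratio stayed between 0.973 and 1.20 up to 60 min. It was 1.66-fold higher at 75 min and 1.88-fold higher at 90 min, calls that rest on the unadjusted p-value (adjusted p = 0.547 and 0.177, exact negative binomial test), and 2.59-fold higher at 120 min (2.56 to 2.62; adjusted p = 0.0026). Cd44 thus passed the limits in the second hour, and its 120 min level was 2.15 times its 60 min level.

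Itgav, an alpha chain of vitronectin and osteopontin receptors (chr2:83722303-83806917, plus strand, 30 exons), also passed the limits late. Its counts were 17636, 18758, 21646, 18475, 20019, 16267, 19938 and 40463 from 0 to 120 min. It was 1.68-fold higher at 90 min (1.64 to 1.71; adjusted p = 0.400, exact negative binomial test), a call that 6 of 11 alternative settings did not keep, and 2.17-fold higher at 120 min (2.14 to 2.21; adjusted p = 0.0248). Its transcripts are long, and genes of similar length had a median log2 ratio of 0.23 at 120 min, so the log2 ratio of Itgav relative to such genes was 0.89 in place of 1.12.

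Itga4, the alpha chain of receptors for Vcam1 and fibronectin (chr2:79255426-79333114, plus strand, 28 exons), had the highest counts of the members up to 90 min, and Itga5 and Sdc4 had more in the 120 min library. Its counts were 131417, 148286, 175406, 161013, 145543, 96871, 103627 and 147626 from 0 to 120 min. It was called at 45 min alone, with a ratio of 1.62 (1.61 to 1.63; unadjusted p = 0.0488, adjusted p = 0.931, exact negative binomial test), and only 3 of 11 alternative settings kept this call. Itga4 has the longest transcript of the members (9767 bases), and genes of that length had a median log2 ratio of 0.39 in the 45 min library, which leaves 0.30 for Itga4 relative to them. At 120 min its ratio was 1.06 (1.06 to 1.07).

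The beta chains and the alpha chains of the Icam1 receptors were not called at any time point. Itgb1, the partner of Itga4, Itga5 and at times Itgav (chr8:128685654-128733579, plus strand, 16 exons), had ratios of at most 1.16 up to 45 min, of 1.20, 1.30 and 1.28 in the 60, 75 and 90 min libraries and of 1.34 in the 120 min library (1.32 to 1.36; adjusted p = 0.792, exact negative binomial test), based on 19873 to 35505 counts. Itgb2, the common beta chain of the leukocyte integrins (chr10:77530329-77565708, plus strand, 16 exons), had ratios between 0.985 and 1.12 up to 90 min and 1.19 at 120 min (1.17 to 1.21). Its partner Itgam, whose complex with Itgb2 serves as a complement receptor (chr7:128062640-128118491, plus strand, 30 exons), had the narrowest range of the members with ratios from 1.01 to 1.11. Itgal, the alpha chain of the main lymphocyte receptor for Icam1 (chr7:127296139-127335137, plus strand, 31 exons), had only 483 to 611 counts per library. Its ratio was 1.42 at 45 min (1.26 to 1.59) and 1.49 at 75 min (1.32 to 1.69), both not called, and 0.988 at 120 min (0.878 to 1.11). In the libraries rich in Rn45s (15, 45, 75 and 90 min) the Itgal ratios lay between 1.21 and 1.49. At 30, 60 and 120 min they were 1.05, 1.05 and 0.988. The part of the Rn45s difference in the Itgal course was not tested. For all members other than Icam1, Itga5 and Sdc4 the 60 min ratio was so close to 1 that its side of 1 changed under at least 1 alternative, and at 120 min this held for Itgam and Itga4.

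From 60 to 120 min, 4 members were called higher, namely Itga5 (1.81-fold), Itgav (1.84-fold), Cd44 (2.15-fold) and Sdc4 (1.92-fold), and none lower, while 3.61% of the 15713 genes tested were called higher and 3.71% lower. Adjusted over all genes, none of the 4 passed (adjusted p = 0.304, 0.272, 0.0648 and 0.193, exact negative binomial test). Icam1 is therefore the only one of the 5 members higher at 120 min that was not called between these 2 libraries.

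Levels of different genes were compared as rpkm, reads per 1000 unique 58-base positions of the transcripts and 1000000 counts of the library. All 58-base positions of all members were unique to their gene, so no member shares such stretches with a relative. Before stimulation Itga4 was the most abundant member with 103 rpkm, followed by Itgb2 (70.1), Sdc4 (54.7), Itgb1 (51.1), Icam1 (49.7), Cd44 (47.8), Itgam (44.7), Itga5 (22.4), Itgav (19.2) and Itgal (0.815). The counting intervals of Itgb1 (50.4 to 51.7) and Icam1 (48.9 to 50.4) touch, and Icam1 (48.5) and Cd44 (49.6) trade places if the longest transcript is used as the length. Levels per length thus lay between 19.2 and 103 rpkm for 9 of the members, and Itgal stood far below, at percentile 5.60 of the 10356 genes of that abundance with a known length.

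After 120 min the order was Sdc4 (409 rpkm), Itga5 (235), Icam1 (203), Cd44 (108), Itga4 (95.6), Itgb2 (72.7), Itgb1 (59.4), Itgam (39.4), Itgav (36.4) and Itgal (0.701). Sdc4 went from percentile 86.2 to 98.1 of these genes, and Itga5 from 68.6 to 97.0. Rpkm values are relative to all counts of a library, so for genes with a ratio near 1 they come out lower at 120 min than the size factors give.

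**Figure D3:**
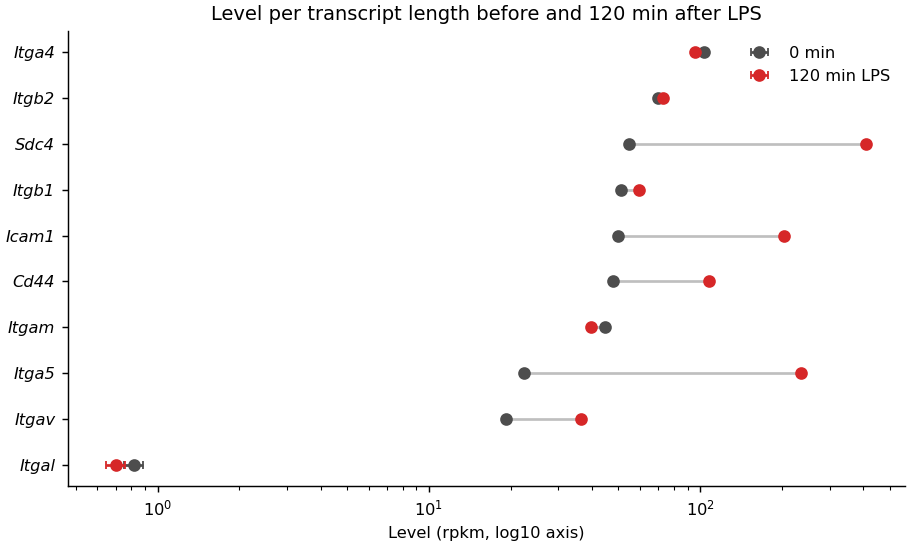
Level of each member in rpkm (log10 axis) at 0 min (grey) and after 120 min of LPS (red), 1 library each, with exact Poisson 95% intervals, ordered by the level at 0 min. Sdc4, Itga5 and Icam1 reach 203 rpkm or more, Cd44 and Itgav move less, and Itgal stays under 1 rpkm.

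Set against each other per length, the alpha chains that bind matrix ligands changed their proportions. Of the summed rpkm of Itga4, Itga5 and Itgav, Itga4 made up 71.3% before stimulation, 70.5% after 30 min, 40.9% after 60 min and 26.0% after 120 min. The share of Itga5 was 15.5%, 17.4%, 51.3% and 64.1% in the same libraries, so that Itga5 became the most abundant of the 3 alpha chain mRNAs between 45 and 60 min. The share of Itgav lay between 7.65% and 13.3%. The sum of the 3 increased from 145 rpkm at 0 min to 367 rpkm at 120 min, while Itgb1 had 51.1 and 59.4 rpkm. Of the beta chains that are not members, Itgb5 had 26.0 and 18.0 rpkm and Itgb7 had 4.55 and 6.21 rpkm. The other pair showed no such shift: Itgam made up 97.6% to 98.3% of the sum of Itgam and Itgal in all 8 libraries. These shares describe mRNA, and chain pairing at the surface was not measured.

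**Figure D4:**
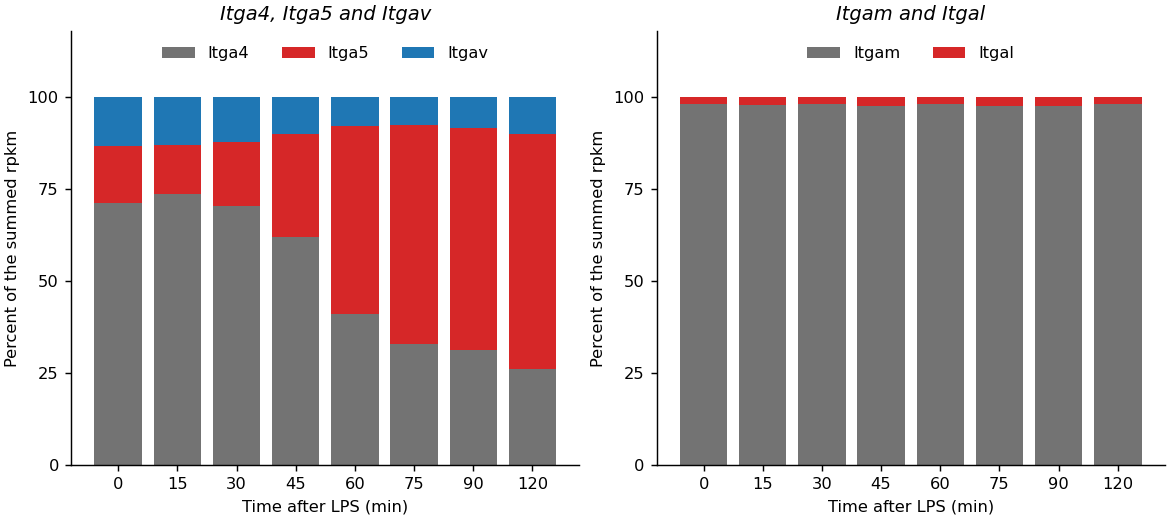
Percent of the summed rpkm taken by each alpha chain in each of the 8 libraries (left, Itga4, Itga5 and Itgav; right, Itgam and Itgal) against time after LPS in min. On the left the Itga5 part grows from 15.5% at 0 min to 64.1% at 120 min and the Itga4 part shrinks from 71.3% to 26.0%. On the right the Itgam part stays at or above 97.6%.

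The courses of some members resembled each other. Over the 8 libraries, which share their size factors, Pearson's r of log2(normalized count + 1) was 0.98 for Icam1 and Sdc4, 0.97 for Itga5 and Sdc4, and 0.96 for Itga5 and its partner Itgb1, whose changes differ greatly in size. Cd44 and Itgb2 also had an r of 0.98, although Itgb2 was never called, and r was 0.94 for Cd44 and Itgav and 0.92 for Itgb2 and Itgav. Among the 10492 genes, the courses most like that of Icam1 were those of Zfp948 (0.996), Spag5, Csrnp1, Pde4b and Birc3, and those most like Itga5 were Usp16 (0.999), Tmem248, Pdlim7, Plek and Mapre1. For Sdc4 they were Saa3 (0.998), Gp49a, Cxcl10, Il1a and Polr3d, for Cd44 Pop1 (0.998), Metrnl, Pik3r5, Arhgef3 and Slc11a2, and for Itgav Prep (0.994), Mgat4a, Zxdc, Rictor and B230120H23Rik. Such values were common: an r over 0.9 was reached by 448 of the 10492 genes with Icam1 and by 629 with Itgav. With Sdc4, Cd44 and Itga5 it was reached by 1019, 1075 and 1161 genes. Pearson's r compares the shape of courses and not the size of changes. Among the 5 nearest genes, the 120 min ratios ran from 1.34 to 13.8 for Icam1, itself at 4.71. For Itga5, at 12.1, they ran from 1.34 to 3.61, and for Sdc4, at 8.60, from 2.77 to 3157. For Cd44, at 2.59, they ran from 1.63 to 6.86, and for Itgav, at 2.17, from 1.28 to 2.26. By Spearman's coefficient the nearest genes could not be told apart, since 238 genes tied at 1 with Itga5, 120 each with Cd44 and Sdc4, 10 with Itgav and 3 with Icam1.

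Lists of related genes show where the members stand in the adhesion machinery at 120 min, beside the 7.64% of all genes called higher and 6.7% lower. Of the 13 other integrin alpha chains and the 7 genes listed as other beta chains, which include the beta-like gene Itgbl1, none was called higher or lower. Only 3 of each averaged 100 normalized counts or more (Itga6, Itga7 and Itgax, and Itgb4, Itgb5 and Itgb7). Itgax, the alpha chain of a further complement receptor, had a ratio of 1.50 (adjusted p = 0.544, exact negative binomial test), and Itgb5, a beta chain that can pair with Itgav, had 0.796. Itgb7 had a ratio of 1.57 (adjusted p = 0.422, exact negative binomial test). Both Itgax and Itgb7 passed the ratio limit of 1.41 and were not called because of their p-values. Itga5 and Itgav were therefore the only integrin chains, members and others together, called higher at 120 min. Itgb3, the beta chain best known as a partner of Itgav, had 1, 3 and 2 counts at 0, 60 and 120 min.

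Of 20 other leukocyte adhesion receptors, 4 were called higher and 0 lower, and 9 averaged 100 normalized counts or more. Icam5, a relative of Icam1, was 3.10-fold higher on low counts (112 at 0 min and 367 at 120 min; adjusted p = 0.0031, exact negative binomial test). Cd47, which signals to phagocytes as a marker of self, was 2.34-fold higher (adjusted p = 0.0109) and Alcam 1.74-fold higher (adjusted p = 0.197). The fourth was Sele, a selectin best known from endothelium and named here after its values were seen, with 1 count before stimulation and 82 and 161 counts after 60 and 120 min, a final ratio of 153 with a counting interval from 27.0 to 6061. The 5 endothelial markers were all low: Cdh5 and Pecam1 had at most 7 and 8 counts in any library, Tie1 and Tek at most 3. Kdr had 7 counts before stimulation and 12 to 36 afterwards and was called higher at 30 and 120 min (26 counts at 120 min, a ratio of 3.52 with an interval from 1.49 to 9.60; adjusted p = 0.30, exact negative binomial test), so it moved in the direction of Sele, and its part in that result was not tested. Vcam1, a ligand of the Itga4 receptor, had 0 counts at 0, 60 and 120 min. Icam2, another ligand of the leukocyte integrins, had a ratio of 0.789 and was not called. Of 15 syndecans and genes of hyaluronan binding and turnover, 0 were called in either direction. The other listed syndecans were Sdc1, with a ratio of 1.13, Sdc3, with 0.956, and Sdc2, with 0 counts at 0, 60 and 120 min. Sdc3 averaged fewer than 100 normalized counts.

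**Figure D5:**
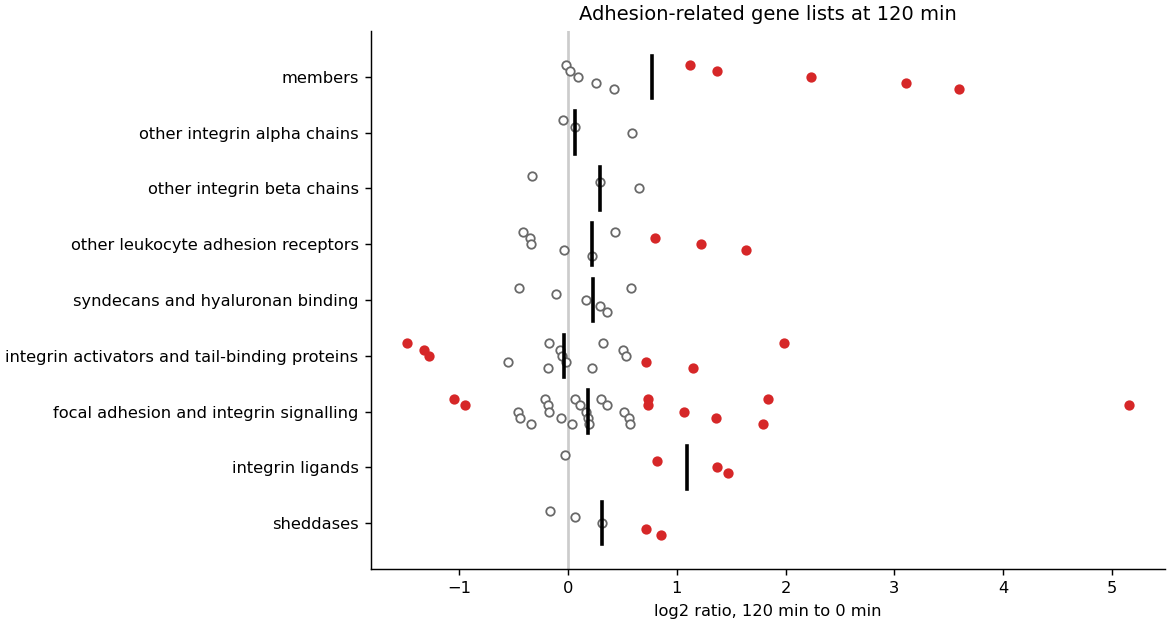
Log2 ratio of normalized counts (120 min to 0 min) of the members and of 8 related gene lists, 1 point per gene averaging 100 normalized counts or more (red, called higher or lower; open, not called), with the list median as a black line. Members reach 3.60, and the called genes of the other lists are below 2 except Src (5.15), the one gene beyond all members.

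Inside the cell, integrin tails are held in check or activated by a set of binding proteins, and of 19 such genes 3 were called higher and 3 lower. Among those higher were the small GTPase Rap1b (2.23-fold; adjusted p = 0.0188, exact negative binomial test) and the actin crosslinker Flna (1.65-fold; adjusted p = 0.299). Cytip, Rassf5 and Dok1 were lower, at 0.360, 0.400 and 0.414 of their 0 min levels (adjusted p = 0.0012, 0.0049 and 0.0074, exact negative binomial test). Cytip is a cytohesin-binding protein that restrains leukocyte integrins, Rassf5 carries the signal of Rap GTPases to Itgal, and Dok1 competes with talin for beta chain tails. Talin itself, Tln1, had a ratio of 1.45 and was not called, and Fermt3, the kindlin of blood cells, had 0.952.

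Of 29 genes of focal adhesions and integrin signalling, 7 were called higher and 2 lower. Src, the tyrosine kinase, went from 43 counts before stimulation to 388 and 1613 after 60 and 120 min, a final ratio of 35.5 (26.3 to 49.3; adjusted p = 1.28e-26, exact negative binomial test). Bcar1, an adaptor phosphorylated by Src, was 8.55-fold higher at 60 min, 8.97-fold at 75 min and 3.57-fold at 120 min (adjusted p = 0.00063 at 120 min). Zyx (3.46-fold; adjusted p = 3.58e-05) and Vcl (2.57-fold; adjusted p = 0.0029), which couple focal adhesions to actin, were higher at 120 min, while Nedd9, a relative of Bcar1, and Tns1 were lower at 0.485 and 0.519 of their 0 min levels (adjusted p = 0.0532 and 0.117). Of 16 integrin ligands, 3 were called higher and 0 lower: Lamc1 (2.77-fold), the osteopontin gene Spp1 (2.58-fold) and C3 (1.76-fold), with adjusted p-values of 0.001, 0.0028 and 0.212. Fn1, the ligand of Itga5, had 0 counts at 0, 60 and 120 min. Of 9 sheddases, some of which cut Cd44 or Icam1 from the surface, 4 were called higher and 0 lower: Adam17 (1.81-fold; adjusted p = 0.147), Adam8 (1.64-fold; adjusted p = 0.303), and on fewer than 100 counts Mmp9 and Mmp14.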

How the data were processed

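The table deposited by the authors holds raw, unnormalized counts of reads, 1 row per gene symbol and 1 column for each of 8 libraries of RAW264.7 cells. The labels give the RNA as total RNA of the cytoplasmic fraction. Per the study's methods, ribosomal RNA was depleted, Bowtie placed the reads (58 bases) on RefSeq transcripts with up to 2 mismatches, and ambiguous reads between gene symbols were dropped. The Bowtie version is not given in the sources used here; the submitters' processing notes name CASAVA 1.8.2 and DESeq 1.10.1. Per the labels, libraries were made with a directional kit, and use of strand in counting is not given in the sources used here.

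The 2 rows without an accession, taken as added transcripts (0.0208% to 0.0316% of counts), were left out of totals and tests. Following the methods, size factors were medians of ratios. One dispersion relation was fitted over the 8 libraries treated as replicates, which counts real change as spread, and pairs of libraries were compared with an exact negative binomial test coded in Python 3.11.15 with numba 0.67.0, scipy 1.17.1, numpy 2.4.6 and pandas 2.3.3 and tested on simulated data. Those data held 4-fold changes and a smaller spread than was fitted here, so they do not show how smaller changes are called. A quasi-likelihood test or DESeq2 has no residual degrees of freedom with 1 library per time point. Benjamini-Hochberg adjustment ran over all genes with a count in the pair. Ratios have exact conditional binomial and rpkm values exact Poisson 95% intervals, and depth and intervals cover counting error only, not replicate spread. A count of 0 allows up to 3 counts, or 0.0189 to 0.0299 counts per 1000000.

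Unique 58-base positions were counted in GENCODE vM21 transcripts, coordinates and promoters are from RefSeq (GRCm38.p6), and of the members Itga4 overlaps a gene with counts, Cerkl (at most 122). Transcript length trends are medians over the 501 genes nearest in length. The members and lists were chosen with earlier results of these data known. Named were all members, from each list up to 4 genes per direction called at 60 or 120 min and averaging 100 normalized counts or more, and the 5 genes nearest in course to each member with a log2 ratio beyond 1. One gene of the lists is not reported here. Other named genes of the lists were chosen after their values were seen. The alternatives were other scales (including factors and dispersion of edgeR 4.0.16 in R 4.3.3), limits, filters, references and lengths.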

Additional observations from a re-analysis of the deposited data

How the results depend on the processing

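The members called higher at 60 min (3) and 120 min (5), and the 0 called lower, were the same genes under all 11 alternatives fixed at the outset and under 1 chosen after seeing the data, the scale set by the 2 added transcripts. Over these settings the 120 min log2 ratios ranged from 3.39 to 3.60 for Itga5, 2.90 to 3.14 for Sdc4, 2.03 to 2.27 for Icam1, 1.17 to 1.39 for Cd44 and 0.89 to 1.12 for Itgav. The calls of Sdc4 at 30 min, Cd44 at 75 and 90 min, Itgav at 90 min and Itga4 at 45 min were kept in 10 of 12, 4 of 11, 8 of 11, 5 of 11 and 3 of 11 alternatives. Values near 1 changed side: at 60 min Itgb2 (-0.30 to 0.02) and at 120 min Itgam (-0.18 to 0.03) and Itga4 (-0.23 to 0.09) crossed 0 on the log2 scale, while at 60 min Itgam, Itgal, Itga4, Itgav, Itgb1 and Cd44 went to between -0.22 and -0.03 with the added transcripts as the scale.

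Counts over all genes moved more. The number of genes higher at 60 min, 532, became 308 with the added transcripts as the scale and 246 with adjusted p-values. The 365 lower at 60 min became 614 with the added transcripts, 186 with the edgeR dispersion, 89 with adjusted p-values, 193 with a log2 limit of 1, 627 with the fold limit alone, 634 against the mean of 0 and 15 min and 613 with the length trend removed. The 1196 higher at 120 min became 677 with total counts (beside 1250 lower), 755 with total counts without Rn45s, 766 with the added transcripts, 603 with adjusted p-values and 761 with a log2 limit of 1, and the 1049 lower became 487 and 657 under the last 2. Adjusted p-values and a higher limit call fewer genes by construction, and total counts shift all log2 ratios by up to -0.33 (75 min). The cause of the other differences was not tested. No paired analysis was possible because each time point has 1 library. The spread was also estimated without the 15, 45, 75 and 90 min libraries together, and leaving out single libraries was not run.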
